A study of Mus musculus with 20 samples.

Results

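Conjugation enzymes and carboxylesterases were read here as 5 groups of liver genes picked by symbol alone: the UDP-glucuronosyltransferases (Ugt1a, Ugt2a, Ugt2b and Ugt3a), the sulfotransferases (Sult), the soluble glutathione S-transferases (Gsta, Gstk, Gstm, Gsto, Gstp and Gstt), the microsomal ones (Mgst) and the carboxylesterases (Ces1 to Ces4). Of the 13319 symbols counted, 56 fitted. They were 15 Ugt, 9 Sult, 18 Gst or Mgst and 14 Ces genes, and 53 had enough counts to be tested. Sult2a5, Sult2a7 and Sult2b1 did not and are given by level only.

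The study sequenced RNA from the livers of 20 male mice, each fed a western diet and given a daily treatment for 16 days. There were 5 groups of 4 mice: control, glucagon, T3 (triiodothyronine, the active thyroid hormone), glucagon together with T3 (here the combination), and a set coded Cp. The Cp set was taken as the single molecule that joins glucagon to T3 (here the hybrid) by elimination, since it is the one treatment in the design that no other label names. All groups share the diet, the sex and the length of treatment. What strain and age the mice had, which doses were used and what the controls received was not given in the sources used here. Replicates 1 to 4 of control, glucagon, combination and hybrid ran in lanes 1 to 4 of the sequencer in that order, while all 4 T3 libraries ran in lane 5, so a difference between T3 and control cannot be told apart from a difference between lanes. Comparisons that leave out the T3 group do not have this split.

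These families make up most of what textbooks call phase II metabolism. Ugt enzymes, in the membrane of the endoplasmic reticulum, join glucuronic acid to bilirubin, steroids, phenols and drugs; Sult enzymes, in the cytosol, transfer sulfate to phenols, catecholamines and steroids; and Gst enzymes join glutathione to electrophiles such as epoxides and lipid aldehydes. Carboxylesterases split esters and amides, which activates or inactivates many drugs, and several hydrolyse triacylglycerol or cholesteryl ester in hepatocytes. Thyroid hormones are themselves cleared in part by glucuronidation and sulfation. Several subfamilies, such as Ces1, Ugt2 and Gstm, lie in the mouse genome as rows of related genes. The Gst, Mgst and Sult genes as a whole are spread over several chromosomes.

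Library totals ran from 6091917 counts (T3 replicate 4) to 23195658 (control replicate 1), and 3 counts, the level below which a gene was not taken as measured, equalled 0.145 to 0.479 CPM. CPM are read counts relative to library size, here scaled by TMM, a size factor that lets most genes stay level, and errors on levels are SD over the 4 mice of a group. All 12 hepatocyte markers checked had counts in every library, with summed levels of 164543 to 290760 CPM in control, 200810 to 263651 in glucagon, 114826 to 161274 in T3, 122965 to 186021 in the combination and 103634 to 152529 in the hybrid. The 11 Kupffer cell and macrophage markers, also present in all 20 libraries, summed to 606 to 983 CPM in control, 424 to 569 in glucagon, 1361 to 1717 in T3, 1002 to 1197 in the combination and 989 to 1387 in the hybrid. Of 11 pancreatic acinar markers 5 were in the files, 2 of them with counts in all 20 libraries, and these 5 summed to 25.0 to 72.4 CPM in control, 16.8 to 45.1 in glucagon, 80.7 to 144 in T3, 116 to 174 in the combination and 65.7 to 137 in the hybrid. The 9 cholangiocyte markers, 8 of them with counts in every library, summed to 103 to 189 CPM in control, 60.5 to 77.2 in glucagon, 116 to 143 in T3, 81.9 to 124 in the combination and 71.4 to 168 in the hybrid. Of 7 intestinal epithelium markers 5 were in the files and 1 had counts in every library; they summed to 29.9 to 123 CPM in control, above every library of the other groups (at most 28.2). Skeletal muscle markers reached 774 CPM in control replicate 2 and 2766 in glucagon replicate 3. The highest hybrid library held 486 CPM, the highest combination library 261 and the highest T3 library 43.1, beside group medians of 6.52 to 28.5. The part of these shifts in the results below was not tested. In whole liver, fewer cells of a type and less RNA per cell cannot be told apart.

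Together the 56 genes held 1.46% ± 0.369 of all counts in control, 1.27% ± 0.119 in glucagon, 1.19% ± 0.0603 in T3, 1.20% ± 0.0664 in the combination and 1.03% ± 0.0388 in the hybrid (n = 4 each). Carboxylesterases went from 0.393% ± 0.132 in control to 0.212% ± 0.0345 in the hybrid, and sulfotransferases from 0.0481% ± 0.00967 in control to 0.148% ± 0.00623 in the combination. Sulfotransferases were thus the one family whose share of counts was larger in the groups given T3. Most of that share was Sult1a1, at 435 ± 108 CPM in control and 1314 ± 109 in the combination. Sult5a1 went from 4.05 to 41.6 CPM between these groups, and Sult1b1 went down from 28.3 to 6.68.

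The question put by the 3 groups that received T3 in some form is how each differs from control. Most members were lower. In T3 against control 35 of 53 tested members were called, 7 higher and 28 lower, where 18.0% of all 12907 genes were called (7.31% higher, 10.6% lower). In the combination against control 34 were called, 7 higher and 27 lower, against 20.1% of all genes (9.23% higher, 10.9% lower), and in the hybrid against control 40 were called, 7 higher and 33 lower, against 24.4% of all genes (11.2% higher, 13.2% lower). "Called" means a Benjamini-Hochberg adjusted p under 0.05 over all genes in edgeR's quasi-likelihood test. The median log2 change over the 53 was -0.97, -0.90 and -1.13 in T3, combination and hybrid, beside -0.05, -0.07 and -0.05 over all tested genes. These 3 comparisons share the 4 control mice, so they are set side by side and not taken as separate support for each other.

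The directions ran through every family but were not alike in all of them. Among 15 Ugt genes, 9, 8 and 10 were lower and 1 was higher in T3, combination and hybrid against control. Of 18 Gst and Mgst genes, 11, 11 and 12 were lower and 2 higher. Of 14 Ces genes, 7, 7 and 10 were lower and 1 higher. Among the 6 tested Sult genes calls were mixed, with 3 higher and 1 lower in all 3 comparisons. In all, 26 members were lower and 7 higher in each of the 3 comparisons, 9 were called in 1 or 2 of them, and 11 in none. Of all genes 5.28% were called lower and 3.95% higher in each of the 3, which share the control mice. The 7 higher ones were Ces4a, Gstt1, Gstt3, Sult1a1, Sult4a1, Sult5a1 and Ugt2b37.

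**Figure D1:**
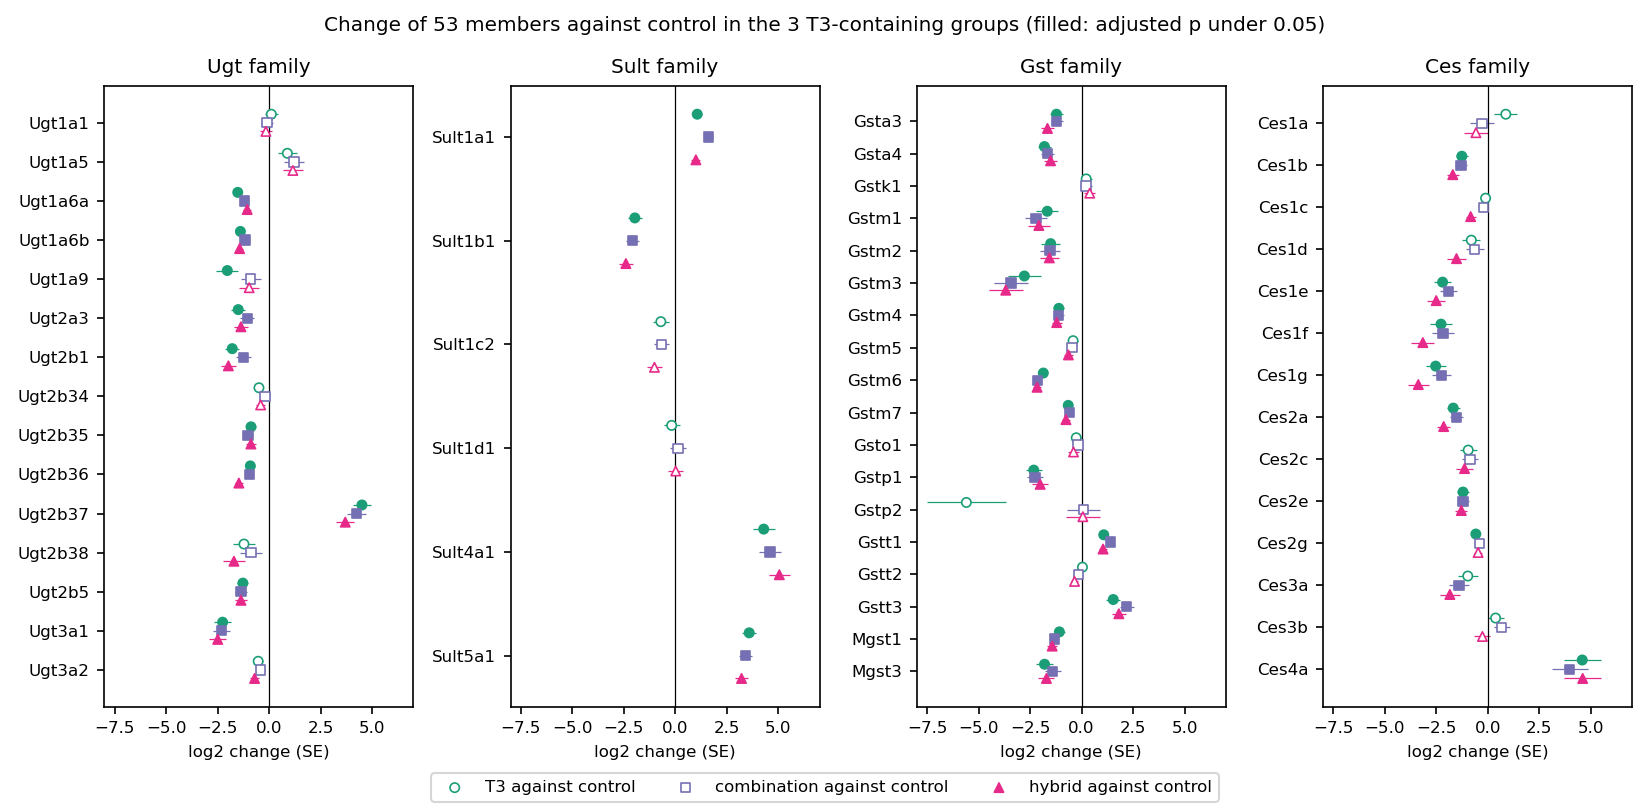
Log2 change against control of each of the 53 tested members (rows) in the T3, combination and hybrid groups, with bars of 1 SE, in 4 panels by family. Filled symbols passed an adjusted p under 0.05. Most symbols lie left of 0, while Ugt2b37, Sult4a1, Sult5a1, Gstt1, Gstt3, Sult1a1 and Ces4a lie right of it in all 3 groups. Gstp2 in T3 had no counts, so its position there depends on the prior count of the fit.

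Seen as single mice, the libraries of the 12 mice that received T3 in any form and those of the 8 that did not were fully apart for 15 of the 53 members, 11 lower and 4 higher with T3. Of all genes 3.15% were fully apart, 1.49% lower and 1.66% higher with T3. Lower in all 12 were Gsta3, Gsta4, Gstm6, Gstp1, Mgst1, Mgst3, Ugt1a6a, Ugt1a6b, Ugt2b36, Ugt2b5 and Ugt3a1. Higher in all 12 were Gstt1, Sult4a1, Sult5a1 and Ugt2b37. Sult4a1 was scarce, at most 0.537 CPM without T3 and 1.05 to 5.22 with it, and its control libraries held 0 to 4 counts. For the other 38 members at least 1 library of one set overlapped the other.

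Of the carboxylesterases, 7 Ces1 genes lie in a row on chromosome 8 (GRCm38, chr8:93020214-93337308, all on the minus strand) and 4 Ces2, 2 Ces3 and 1 Ces4 gene lie further along it (chr8:104734003-105150109, plus strand). Summed over its 7 genes, Ces1 stood at 2647 ± 1098 CPM in control, 2566 ± 444 in glucagon, 1795 ± 291 in T3, 1750.1 ± 241 in the combination and 1091 ± 387 in the hybrid. Calls were uneven within the row. Ces1b, Ces1e, Ces1f and Ces1g were lower in all 3 comparisons with control, Ces1c and Ces1d in the hybrid alone, and Ces1a in none.

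Ces1f, an esterase of the endoplasmic reticulum tied to the handling of stored lipid, measured 619.9, 105, 343 and 269 CPM in control replicates 1 to 4 and 218, 253, 225 and 263 in glucagon. It measured 148, 61.2, 30.7 and 37.7 in T3, 48.5, 95.6, 72.9 and 79.9 in the combination and 62.5, 14.7, 55.1 and 18.1 in the hybrid. Control replicate 2 (105 CPM) lies below T3 replicate 1 (148 CPM), so these groups overlap, whereas every hybrid mouse lies below every control and glucagon mouse. Against control it changed by -2.27 ± 0.53 log2 units (SE) with T3 (edgeR adjusted p 0.0070), by -2.17 ± 0.53 with the combination (adjusted p 0.0069) and by -3.15 ± 0.55 with the hybrid (adjusted p 0.00035), the last equal to 8.88-fold lower.

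Ces1g, which hydrolyses triacylglycerol and cholesteryl ester, gave 162, 100.3, 63.8 and 139.8 CPM in control and 34.7, 28.8, 112 and 62.8 in glucagon. The T3 mice gave 31.6, 25.4, 9.44 and 14.2, the combination mice 14.4, 36.2, 31.4 and 16.8 and the hybrid mice 14.9, 7.77, 17.3 and 5.04. All 12 values from mice given T3 lie below all 4 controls, while 2 glucagon mice lie among the upper T3 and combination values. It changed by -3.37 ± 0.50 log2 units with the hybrid against control (edgeR adjusted p 6.8e-05), and by -2.53 and -2.24 with T3 and the combination (adjusted p 0.0016 and 0.0024).

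Ces1e, also known as egasyn, the protein that retains β-glucuronidase in the endoplasmic reticulum, changed by -2.19 ± 0.43, -1.91 ± 0.42 and -2.50 ± 0.43 log2 units with T3, combination and hybrid (edgeR adjusted p 0.0018, 0.0032 and 0.00029). Its control values ran from 45.3 to 382 CPM, with replicate 2 lowest, and those of the 12 mice given T3 from 21.1 to 57.8. Ces1d, the triacylglycerol hydrolase that frees stored lipid for secretion in lipoproteins, ranged over 125 to 898 CPM in control, 668 to 967 in glucagon, 222 to 387 in T3, 279 to 484 in the combination and 98.9 to 314 in the hybrid. Ces1c, the esterase that mice secrete into plasma, had 1435 ± 406 CPM in control and 1335 ± 210.0 in T3, with 808 ± 238 in the hybrid.

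Ces2a, an acylglycerol hydrolase of liver and gut, measured 59.3, 15.5, 40.5 and 36.8 CPM in control and 48.5, 68.0, 43.9 and 51.8 in glucagon, then 12.4, 13.6, 8.96 and 12.6 in T3, 11.7, 13.8, 11.3 and 16.7 in the combination and 11.7, 4.82, 10.6 and 7.28 in the hybrid. Control replicate 2 lies below 1 combination mouse, and all other control and glucagon mice lie above every mouse given T3. Ces2a changed by -1.68 ± 0.32, -1.51 and -2.14 log2 units with T3, combination and hybrid (edgeR adjusted p 0.0014, 0.0018 and 6.4e-05). Its neighbours moved less evenly: Ces2e was lower in all 3 comparisons, Ces2g in T3 alone and Ces2c in the hybrid alone. Ces3a, a liver esterase, ranged over 578 to 2062 CPM in control, 265 to 999 in T3, 291 to 699.8 in the combination and 78.1 to 622 in the hybrid and was called lower in the last 2 groups, while Ces3b, the next carboxylesterase gene along, was called in no comparison.

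Ces4a, the last gene of the row (chr8:105131800-105150109), was the carboxylesterase that rose. It was counted at 5.99, 0.676, 8.53 and 2.19 CPM in control and 13.9, 15.1, 1.72 and 4.23 in glucagon. With T3 it stood at 33.8, 133, 132 and 107, with the combination at 99.3, 28.8, 30.0 and 109 and with the hybrid at 13.2, 85.0, 69.4 and 245. The lowest hybrid value, in replicate 1, lies below 2 glucagon mice, and every mouse given T3 lies above every control mouse. Against control it rose by 4.59 ± 0.89 log2 units with T3 (24.0-fold higher, edgeR adjusted p 0.0017), by 3.98 ± 0.87 with the combination (adjusted p 0.0029) and by 4.61 ± 0.89 with the hybrid (adjusted p 0.00084). No 50-base stretch of its transcripts occurs in those of another gene.

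The sequence before Ces4a is shown because it is the member of its cluster that rose, and it holds the 6-letter core that nuclear receptors such as the thyroid hormone receptors bind (AGGTCA). Ces2a, in the same cluster and called lower in all 3 groups with T3 against control, holds the core too, further from its start. Shown for Ces4a are 100 bases upstream of the RefSeq start (GRCm38.p6, chr8:105131677-105131776, plus strand), ending with the core in capitals. The core lies on the opposite strand here, so its reverse complement is printed.
Ces4a: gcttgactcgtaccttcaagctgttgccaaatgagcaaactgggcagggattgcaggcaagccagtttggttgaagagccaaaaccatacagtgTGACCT
The core lies 29 to 24 bases before the start.

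**Figure D2:**
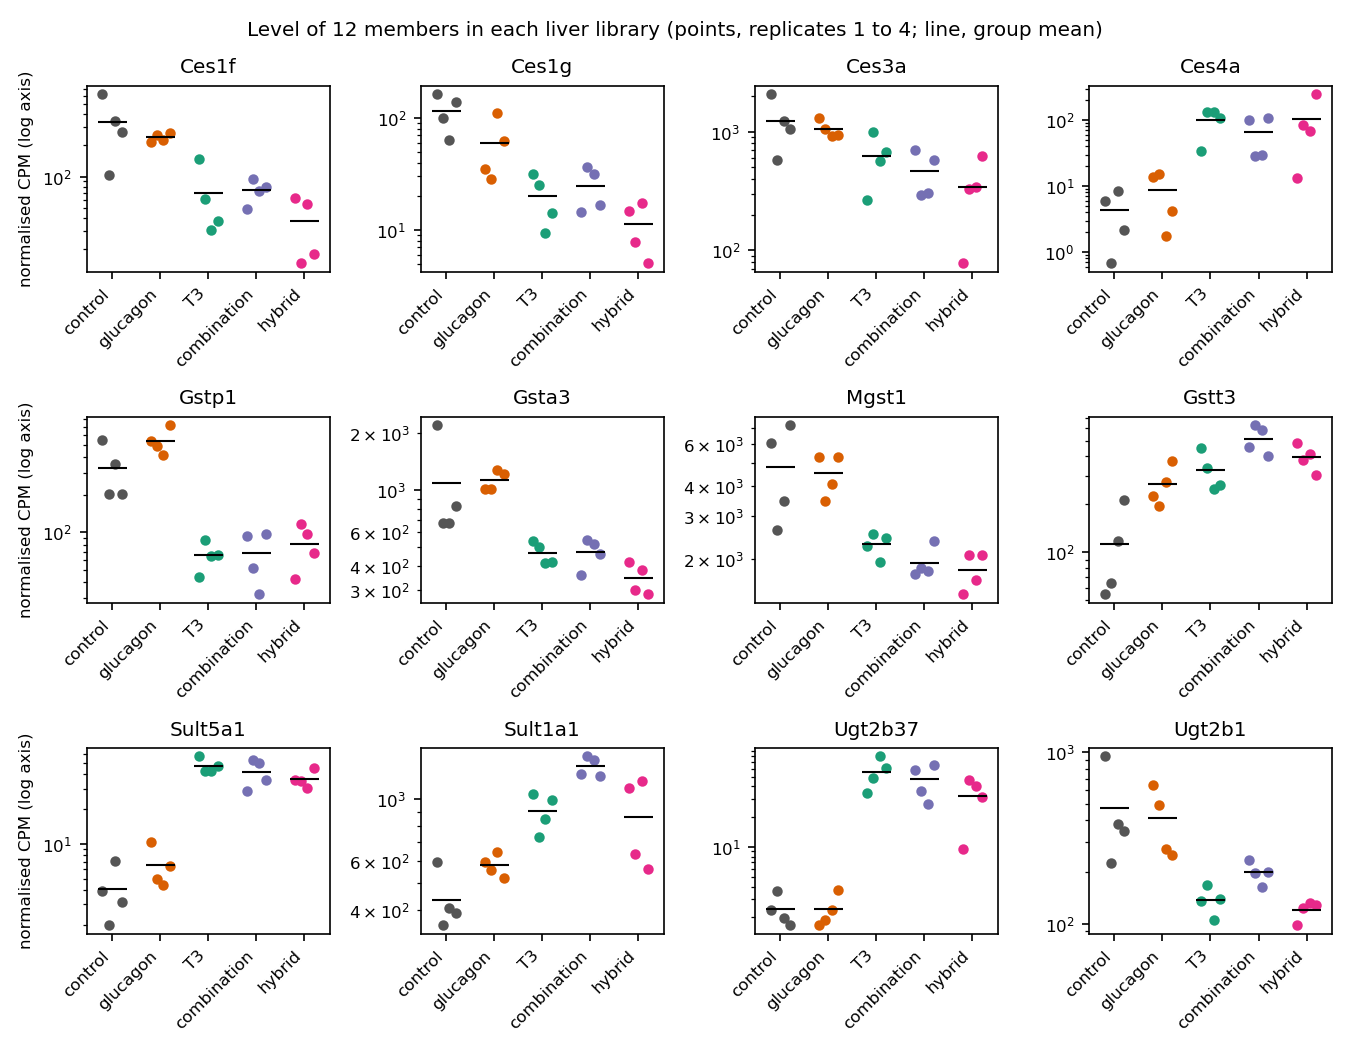
Level (normalised CPM, log axis) of 12 members in each of the 20 libraries, points in replicate order with the group mean as a line. Ces4a, Sult5a1 and Ugt2b37 sit higher in the T3, combination and hybrid mice, Gstp1, Gsta3 and Mgst1 sit lower there in every mouse, and Ces1f, Ces1g and Ces3a are lowest on average in the hybrid.

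The Ugt2 genes form another row, on chromosome 5 (chr5:86889767-87424203), with Ugt2b34, Ugt2b1, Ugt2b35, Ugt2b36, Ugt2b5, Ugt2b37, Ugt2a3 and Ugt2b38 in that order. These enzymes conjugate steroids, bile acids and many drugs. Summed over its 7 genes, Ugt2b stood at 1649 ± 759 CPM in control, 1347 ± 183 in glucagon, 861 ± 147 in T3, 965 ± 135 in the combination and 771 ± 80.1 in the hybrid. Ugt2b1, Ugt2b35, Ugt2b36, Ugt2b5 and Ugt2a3 were lower in all 3 comparisons with control, Ugt2b34 in none, and Ugt2b38 in the hybrid alone. Ugt2b37 was higher in all 3.

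Ugt2b37 was counted at 2.35, 3.67, 1.96 and 1.66 CPM in control and 1.67, 1.88, 2.37 and 3.72 in glucagon, at 34.2, 48.6, 79.5 and 61.2 in T3, 58.9, 36.0, 27.0 and 66.1 in the combination and 9.57, 46.3, 40.6 and 31.4 in the hybrid. No mouse without T3 exceeded 3.72 CPM and no mouse with it fell under 9.57, the value of hybrid replicate 1. The rise was 4.50 ± 0.45 log2 units with T3 (22.6-fold higher, edgeR adjusted p 2.5e-06), 4.25 ± 0.45 with the combination (adjusted p 2.4e-06) and 3.69 ± 0.44 with the hybrid (adjusted p 7.0e-06).

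Ugt2b38, the last gene of the row, had 13.3, 4.68, 6.17 and 2.64 CPM in control, 1.23, 4.72, 1.53 and 4.15 in T3, 7.46, 1.20, 2.22 and 3.53 in the combination and 1.47, 1.70, 2.26 and 2.89 in the hybrid, with the groups overlapping. It fell by 1.71 ± 0.54 log2 units in the hybrid against control (edgeR adjusted p 0.026), a call lost without control replicate 1, which was the highest mouse (log2 change -1.12, adjusted p 0.13), and also without hybrid replicate 1, 2 or 3. Of its 50-base stretches 37.4% also occur in other transcripts, chiefly Ugt2b5, and 18.3% of those of Ugt2b37 do, so how shared reads were assigned bears on both.

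The stretches before 4 genes of this row are shown because all hold the core AGGTCA close to the start while their levels went different ways. Each is 100 bases from RefSeq (GRCm38.p6, minus strand, written 5′ to 3′ toward the gene), aligned to end with the core in capitals: Ugt2b37 at chr5:87254822-87254921, Ugt2b38 at chr5:87424223-87424322, Ugt2b5 at chr5:87140357-87140456 and Ugt2b36 at chr5:87092575-87092674.
Ugt2b37: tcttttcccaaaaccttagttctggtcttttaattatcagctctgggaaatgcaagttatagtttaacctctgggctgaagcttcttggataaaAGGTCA
Ugt2b38: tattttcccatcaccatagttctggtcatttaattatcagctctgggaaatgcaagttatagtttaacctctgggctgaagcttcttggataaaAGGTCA
Ugt2b5: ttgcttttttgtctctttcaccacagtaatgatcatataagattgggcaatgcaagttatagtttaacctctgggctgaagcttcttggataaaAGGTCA
Ugt2b36: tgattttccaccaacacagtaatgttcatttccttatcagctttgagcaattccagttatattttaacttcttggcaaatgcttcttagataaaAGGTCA
Ugt2b37 and Ugt2b38 have the same letter at 95 of 100 positions, Ugt2b37 and Ugt2b5 at 66, and Ugt2b37 and Ugt2b36 at 74. The core lies 39 to 34 bases before the start of Ugt2b37, 25 to 20 before Ugt2b38 and Ugt2b36, and 22 to 17 before Ugt2b5. Ugt2b37 rose in every T3-containing group, Ugt2b5 and Ugt2b36 fell in every one, and Ugt2b38 was called in the hybrid alone.

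Promoters of 250 bases were at hand for 47 members, 57 in all where a gene has several starts. AGGTCA, read on both strands, occurred in 10 of the 57 (17.5%) and in 14% of 32851 mouse promoters of the same length. The 10 belonged to 5 of the 7 Ugt2b genes (Ugt2b5, Ugt2b35, Ugt2b36, Ugt2b37 and Ugt2b38) and to Ces2a, Ces4a, Gstk1, Sult1b1 and Ugt1a9, and none to the 7 Gstm or 5 Ces1 genes. Members called higher and members called lower with T3 both held it. The direct repeat of AGGTCA with 4 letters between the copies, to which thyroid hormone receptors bind with retinoid X receptors, occurred in none of the 57 and in 0.0152% of all. The cyclic AMP element TGACGTCA, a target of glucagon signalling, occurred in none of the 57 and in 1.55% of all, and its shorter form TGACG in 8.77% of the 57 and 17.8% of all. The antioxidant element core TGACNNNGC, which overlaps these letters in part, occurred in 7.02% of the 57 and 10.2% of all, and the dioxin receptor core GCGTG in 15.8% and 28.2%. These are matches of letters in one short window and say nothing about binding.

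Ugt2b1, which glucuronidates steroids and phenols, measured 946, 225, 381 and 349 CPM in control and 648, 495, 271 and 250.1 in glucagon. It measured 136, 167, 105 and 139.8 in T3, 236, 197, 163 and 200.4 in the combination and 97.9, 123, 131 and 129 in the hybrid. The 4 hybrid and 4 T3 mice lie below every control and glucagon mouse, and combination replicate 1 (236 CPM) lies just above control replicate 2 (225 CPM). It changed by -1.80 ± 0.35, -1.26 and -1.98 log2 units with T3, combination and hybrid (edgeR adjusted p 0.0019, 0.014 and 0.00041). Without control replicate 1, its highest mouse, the combination call was lost (log2 change -0.68, adjusted p 0.093).

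Ugt2b36 fell by 1.47 ± 0.21 log2 units in the hybrid (edgeR adjusted p 3.4e-05), with 121, 125, 135 and 119.5 CPM against 475, 219, 297 and 399 in control. Ugt2b5 fell by 1.37 ± 0.27 in the combination (adjusted p 0.0013), with 115, 77.0, 91.7 and 125 CPM against 499, 169, 208 and 177. Both were lower in all 12 mice given T3 than in all 8 others. Ugt3a1, of the small branch that uses N-acetylglucosamine in place of glucuronic acid, changed by -2.26 ± 0.42, -2.32 and -2.50 log2 units with T3, combination and hybrid (adjusted p 0.0012, 0.00047 and 0.00019). It was scarce, at 5.75 to 24.8 CPM in control and at most 3.38 in any mouse given T3. Its neighbour Ugt3a2 was called lower in the hybrid alone.

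The Ugt1a genes (chromosome 1, chr1:88070800-88219003) are built differently: each has its own first exon and all share the last ones, so 50.3% to 60.6% of the exon length of the 5 listed here overlaps the others and 58.2% to 96.0% of their 50-base stretches occur in another transcript. Values for single Ugt1a genes therefore rest on how shared reads were assigned and are uncertain. Ugt1a1, the bilirubin enzyme, held 235 ± 86.3 CPM in control, 202 ± 47.3 in glucagon, 252 ± 51.5 in T3, 217 ± 34.9 in the combination and 209.8 ± 80.1 in the hybrid and was called in no comparison. The interval of its log2 change in T3 against control ran from -0.53 to 0.73 (95%).

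Ugt1a6a and Ugt1a6b, whose products conjugate simple phenols, were lower in every mouse given T3. Ugt1a6a measured 20.2, 17.8, 16.3 and 23.0 CPM in control, 20.9, 19.4, 16.5 and 24.1 in glucagon, 6.99, 7.21, 6.49 and 6.07 in T3, 9.36, 10.5, 5.75 and 8.17 in the combination and 7.94, 11.4, 11.2 and 6.16 in the hybrid. It changed by -1.53 ± 0.21 log2 units with T3 (edgeR adjusted p 8.8e-05) and by -1.19 with the combination (adjusted p 0.00036). Ugt1a9, another phenol-conjugating enzyme, fell by 2.04 ± 0.53 log2 units with T3 (adjusted p 0.013), from 7.17 to 20.7 CPM in control to 1.72 to 5.37, and was not called in the other comparisons with control. Ugt1a5 had its lowest group mean in glucagon, at 7.76, 4.59, 4.96 and 9.86 CPM, beside 24.9, 4.83, 18.4 and 18.5 in control and 18.8, 59.3, 46.3 and 28.0 in the combination.

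Among glutathione S-transferases, most alpha, mu, pi and microsomal members were lower, and the theta members Gstt1 and Gstt3 higher, in the groups given T3. Mgst1, the abundant transferase of the endoplasmic reticulum and outer mitochondrial membrane, measured 6049, 2634, 3468 and 7169.6 CPM in control and 5276, 3463, 4082 and 5282 in glucagon. It measured 2257, 2525, 1941 and 2431 in T3, 1719, 1835, 1770.2 and 2358 in the combination and 1421, 2062, 1622 and 2077 in the hybrid, so the highest mouse given T3 (2525 CPM) lies just under the lowest of the others (2634 CPM). It was called lower in all 3 comparisons with control. Gsta3, an alpha-class enzyme known for protecting mice from aflatoxin, ranged over 669 to 2188 CPM in control, 1014 to 1272 in glucagon, 415 to 539.9 in T3, 359 to 545 in the combination and 284 to 420.2 in the hybrid. Gsta4, which clears the lipid aldehyde hydroxynonenal, fell by 1.80 ± 0.32 log2 units with T3 (edgeR adjusted p 0.00072), from 29.7 to 78.2 CPM to 10.5 to 25.8.

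Gstp1, the pi-class enzyme that male mouse liver expresses strongly, measured 551, 202, 354 and 201 CPM in control and 536, 494, 419.6 and 717 in glucagon, and 43.8, 86.6, 65.2 and 66.3 in T3, 93.9, 51.7, 32.0 and 96.4 in the combination and 42.4, 116, 98.0 and 68.9 in the hybrid. No mouse given T3 exceeded 116 CPM and none of the others was under 201. It changed by -2.32 ± 0.39 log2 units with T3 (edgeR adjusted p 0.00046), by -2.25 with the combination (adjusted p 0.00035) and by -2.01 with the hybrid (adjusted p 0.00073). Gstp1 and Gstp2 share 51.0% and 50.4% of their 50-base stretches with other transcripts, chiefly each other, so values of the pair are uncertain.

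The theta-class genes Gstt1 and Gstt3, neighbours on chromosome 10 (chr10:75774115-75798584) whose products act on halogenated compounds, were higher. Gstt1 measured 1114, 516, 717 and 888 CPM in control and 948, 806, 838 and 922 in glucagon, against 1702, 1783, 1546 and 1790.0 in T3, 1997, 2160.2, 2489.7 and 1877 in the combination and 1975, 1719.8, 1628 and 1339 in the hybrid. Every mouse given T3 lies above every mouse without it. It rose by 1.08 ± 0.19 log2 units with T3, 1.40 with the combination and 1.04 with the hybrid (edgeR adjusted p 0.00085, 4.1e-05 and 0.00054).

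Gstt3 measured 54.8, 64.5, 118 and 214 CPM in control, 225, 196, 275 and 373 in glucagon, 453, 340.2, 251 and 264 in T3, 458, 625, 583 and 401 in the combination and 486, 378, 413 and 304 in the hybrid. It rose by 1.54 ± 0.34, 2.19 and 1.81 log2 units with T3, combination and hybrid (edgeR adjusted p 0.0045, 0.00015 and 0.00065). Its glucagon mice overlap the control and T3 mice and lie below all 4 combination mice. Gstt2, further along the chromosome, was called in no comparison, with 60.4 ± 8.10 CPM in control and 54.7 ± 3.79 in the combination.

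Of the sulfotransferases, Sult1a1, Sult5a1 and the scarce Sult4a1 were higher and Sult1b1 lower in all 3 groups given T3. Sult1a1, the main liver enzyme for phenols, which also sulfates iodothyronines, measured 594, 352, 405 and 388 CPM in control and 596, 558, 647 and 519 in glucagon. It measured 1048, 729, 851 and 994 in T3, 1229, 1427, 1387 and 1212 in the combination and 1100.1, 636, 1165 and 562 in the hybrid. All combination mice lie above all T3 mice, and hybrid replicates 2 and 4 lie within the range of glucagon. It rose by 1.06 ± 0.22, 1.60 and 0.99 log2 units with T3, combination and hybrid (edgeR adjusted p 0.0030, 4.5e-05 and 0.0027).

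Sult5a1 measured 3.90, 1.98, 7.15 and 3.17 CPM in control, 10.4, 4.91, 4.38 and 6.44 in glucagon, 56.8, 42.7, 42.6 and 47.1 in T3, 28.4, 52.6, 49.9 and 35.6 in the combination and 35.5, 34.7, 30.5 and 45.5 in the hybrid. The mice with and without T3 do not overlap, the gap running from 10.4 to 28.4 CPM. It rose by 3.58 ± 0.33 log2 units with T3 (12.0-fold higher, edgeR adjusted p 8.8e-07), 3.40 with the combination (adjusted p 9.8e-07) and 3.21 with the hybrid (adjusted p 1.3e-06). Sult1b1, which sulfates thyroid hormones and simple phenols, measured 54.9, 15.8, 14.4 and 28.0 CPM in control, 17.1, 9.83, 16.3 and 11.7 in glucagon and 5.17, 4.93, 6.22 and 5.13 in the hybrid. It changed by -1.97 ± 0.34, -2.09 and -2.40 log2 units with T3, combination and hybrid (adjusted p 0.00061, 0.00019 and 3.9e-05).

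Sult1d1, a catecholamine sulfotransferase, and Sult1c2 were called in no comparison; Sult1d1 ranged over 18.6 to 102 CPM in control and 46.6 to 64.3 in the combination. The untested hydroxysteroid enzymes Sult2a5 and Sult2a7 and the cholesterol sulfotransferase Sult2b1 stayed under 5 CPM in every mouse. Sult2a5 had no counts in any control or glucagon library, which allows up to 0.145 to 0.302 CPM per library, and 0 to 38 in the 12 libraries of mice given T3, the highest in T3 replicate 1.

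The control mice were spread for many members. Control replicate 1 was the highest mouse of all 20 for members such as Ugt2a3 (399 CPM, beside 86.3 to 107 in the other controls) and Ces2e (393 beside 111 to 171), and control replicate 2 the lowest control for Ces1d and Ces3b (125 and 86.7 CPM). A fit on T3 and control alone, with 8 libraries, called 20 members in place of 35, and 25 and 29 in place of 34 and 40 for the combination and the hybrid. Leaving out 1 mouse ended calls on Ces2g, Ugt2b35, Gstm1, Gstm2, Gstm3 and Gstm7 (T3), on Ces3a, Gstm2, Gstm7, Mgst3, Ugt2a3 and Ugt2b1 (combination), and on Ces1c, Ces1d, Ces2c, Gstm2, Gstm5, Ugt2b35, Ugt2b38 and Ugt3a2 (hybrid).

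Glucagon alone, compared with control, asks what the peptide hormone did without T3. Of 53 members 8 were called (15.1%), 3 higher and 5 lower, beside 21.2% of all genes (9.23% higher, 11.9% lower). The members' share was no higher than that of all genes, so the count says nothing particular to them. The lower ones were 4 mu-class transferases (Gstm2, Gstm3, Gstm4 and Gstm6) and Sult1b1, and the higher ones were Gstp2, Gstt3 and Sult4a1. Sult4a1 had 0, 4, 1 and 2 counts in the control libraries and 9, 6, 5 and 2 in glucagon. Control replicates 1, 3 and 4 and glucagon replicate 4 thus lie under the floor of 3 counts. Its call (edgeR adjusted p 0.046) held in 5 of the 13 alternative fits that tested it. No Ugt and no Ces gene was called. The median log2 change of the 53 was -0.24 and that of all genes -0.09.

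Gstp2 measured 0, 1.11, 0.490 and 0.151 CPM in control, where the libraries had 0, 23, 5 and 2 counts, and 7.70, 8.73, 4.96 and 8.66 in glucagon. In the combination it was at 0.770, 0.160, 0.740 and 0.186 and in the hybrid at 0.163, 0.164, 0.992 and 0.747, and all 4 T3 libraries had no count, which allows up to 0.368, 0.393, 0.354 and 0.479 CPM. The glucagon mice thus stand apart from all 16 others. It rose by 4.02 ± 0.73 log2 units against control (edgeR adjusted p 0.00089), a value that rests on few control counts. Its neighbour Gstp1, with which it shares sequence, was not called.

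The mu-class genes lie together on chromosome 3 (chr3:107895821-108044894), and their products conjugate a wide range of epoxides and quinones. Gstm3 measured 9.73, 513, 38.8 and 486 CPM in control and 14.7, 21.1, 29.1 and 43.9 in glucagon, so control replicates 2 and 4 stood far above replicates 1 and 3, and replicate 1 was below every glucagon mouse. It fell by 3.27 ± 0.81 log2 units (edgeR adjusted p 0.0067). Gstm2 had its highest controls in the same mice, with 5.03, 35.6, 12.7 and 47.7 CPM in control and 9.37, 5.24, 12.2 and 12.6 in glucagon, and fell by 1.36 ± 0.47 (adjusted p 0.042). Gstm6 was steadier at 66.4, 48.3, 38.0 and 70.7 CPM in control and 29.0, 23.4, 33.0 and 42.6 in glucagon and fell by 0.81 ± 0.19 (adjusted p 0.0051), and Gstm4 fell by 0.81 ± 0.25 (adjusted p 0.025). In T3 against control the Gstm3 call was lost without control replicate 4 (log2 change -2.28, adjusted p 0.052), and also without T3 replicate 2, 3 or 4.

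**Figure D3:**
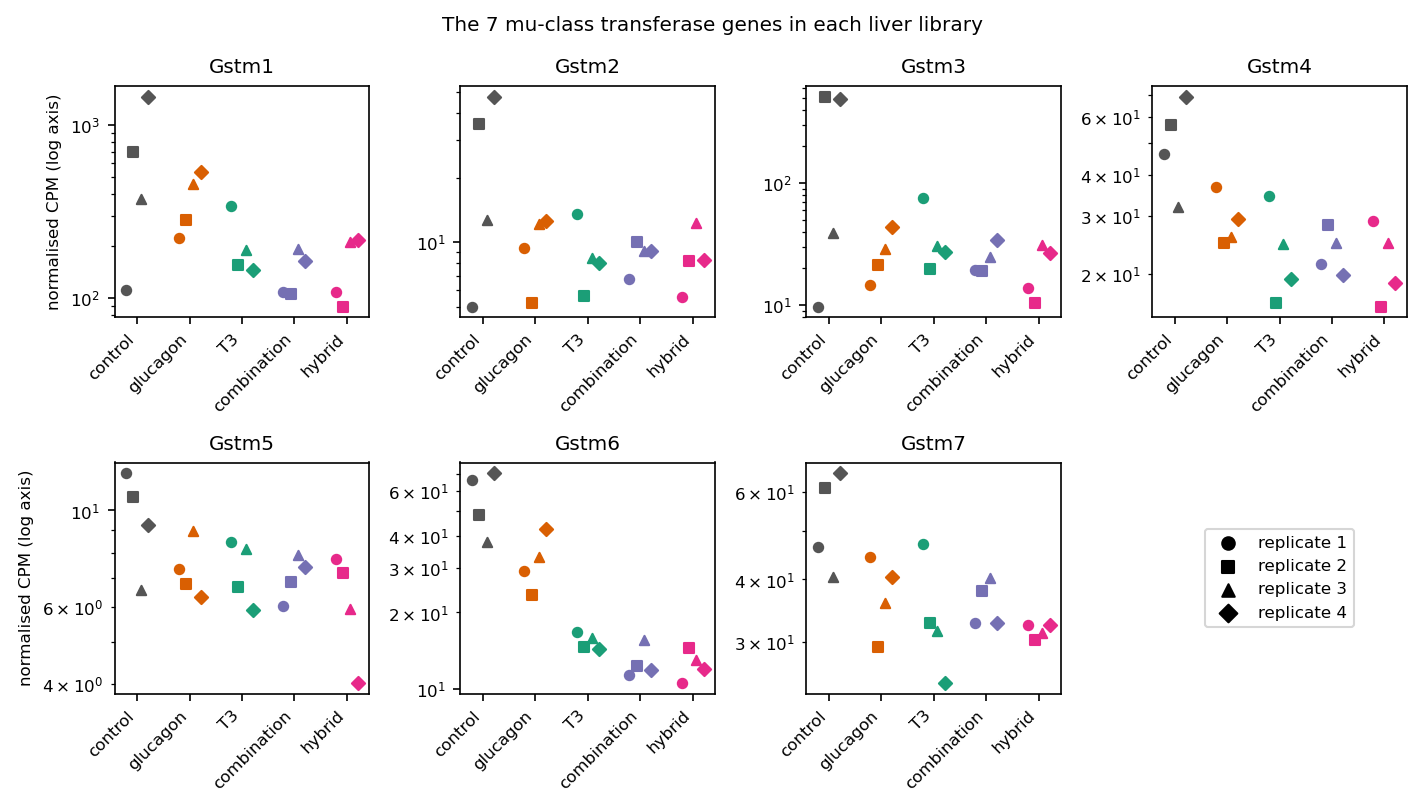
Level (normalised CPM, log axis) of the 7 mu-class genes in each of the 20 libraries, 1 panel per gene, with the symbol giving the replicate number. In Gstm1, Gstm2 and Gstm3 the control mice spread widely, with replicates 2 and 4 highest and replicate 1 lowest, whereas Gstm6 lies at 38.0 to 70.7 CPM in control, 23.4 to 42.6 in glucagon and 10.5 to 16.8 in the 12 mice given T3.

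Gstt3 rose by 1.24 ± 0.33 log2 units with glucagon (edgeR adjusted p 0.012) and Sult1b1 fell by 1.04 ± 0.32 (adjusted p 0.025). Of members with high counts, which were not called, Mgst1 held 4526 ± 906 CPM in glucagon beside 4830.3 ± 2132 in control, Gsta3 1128 ± 134 beside 1088 ± 737, Ces1c 1273 ± 307 beside 1435 ± 406, Ces3a 1056 ± 182 beside 1229 ± 619, and Ugt2b34 378 ± 42.8 beside 437 ± 150.2. The count of 8 was fragile: with the 8 libraries of these groups alone it was 1 (Gstp2), and without single mice it ran from 4 to 12, lowest without glucagon replicate 2. Without control replicate 2 and glucagon replicate 3, the mice with most muscle RNA, 7 were called, 4 of them among the 8.

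Adding T3 to glucagon, seen by comparing the combination with glucagon in the same lanes, lowered more members than it raised. Of 53 members 29 were called, 9 higher and 20 lower, beside 22.5% of all genes (12.4% higher, 10.2% lower), and the median log2 change was -0.54 (all genes 0.00). Such changes depend on the scaling, as TMM factors were 0.829 to 0.853 in glucagon and 0.949 to 1.13 in the combination. By plain library size Ces1 sums went from 2156 to 1815 CPM (2566 to 1750 with TMM). Ugt2b sums went from 1131 to 1016 (1347 to 965 with TMM), while Gstt sums rose from 999.7 to 2801. Calls by plain library size were not tested. The higher members were Ces4a, Gstk1, Gstt1, Gstt3, Sult1a1, Sult4a1, Sult5a1, Ugt1a5 and Ugt2b37. Ugt2b37 rose by 4.31 ± 0.46 log2 units (edgeR adjusted p 1.3e-06), Ces4a rose by 2.91 ± 0.81 (adjusted p 0.013), Sult5a1 rose by 2.66 ± 0.32 (adjusted p 4.9e-06) and Sult1a1 rose by 1.18 ± 0.22 (adjusted p 0.00061). Ugt1a5, not called against control, rose by 2.49 ± 0.50 (adjusted p 0.0011), and Gstk1, a mitochondrial and peroxisomal transferase, rose by 0.79 ± 0.27 (adjusted p 0.037).

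On the lower side, Gstp1 fell by 2.98 ± 0.40 log2 units (edgeR adjusted p 1.7e-05), Gstp2 fell by 3.94 ± 0.74 (adjusted p 0.00091), Ces2a fell by 1.99 ± 0.31 (adjusted p 0.00011) and Ugt3a1 fell by 1.67 ± 0.41 (adjusted p 0.0050). Mgst3, a microsomal transferase with peroxidase activity, fell by 1.44 ± 0.39 (adjusted p 0.010), from 22.8 to 58.7 CPM to 9.00 to 19.9. Gstm6 fell by 1.32 ± 0.20 (adjusted p 6.7e-05), and the other mu-class genes were not called here. Within the Ces1 row Ces1b, Ces1d, Ces1e and Ces1f were lower. Ces1d changed by -1.26 ± 0.44 (adjusted p 0.046). Leaving out single mice gave 22 to 25 calls, and Ces1d, Gstk1 and Gstt3 were each lost in 7 of 14 alternative fits. With glucagon and combination libraries alone 38 were called.

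**Figure D4:**
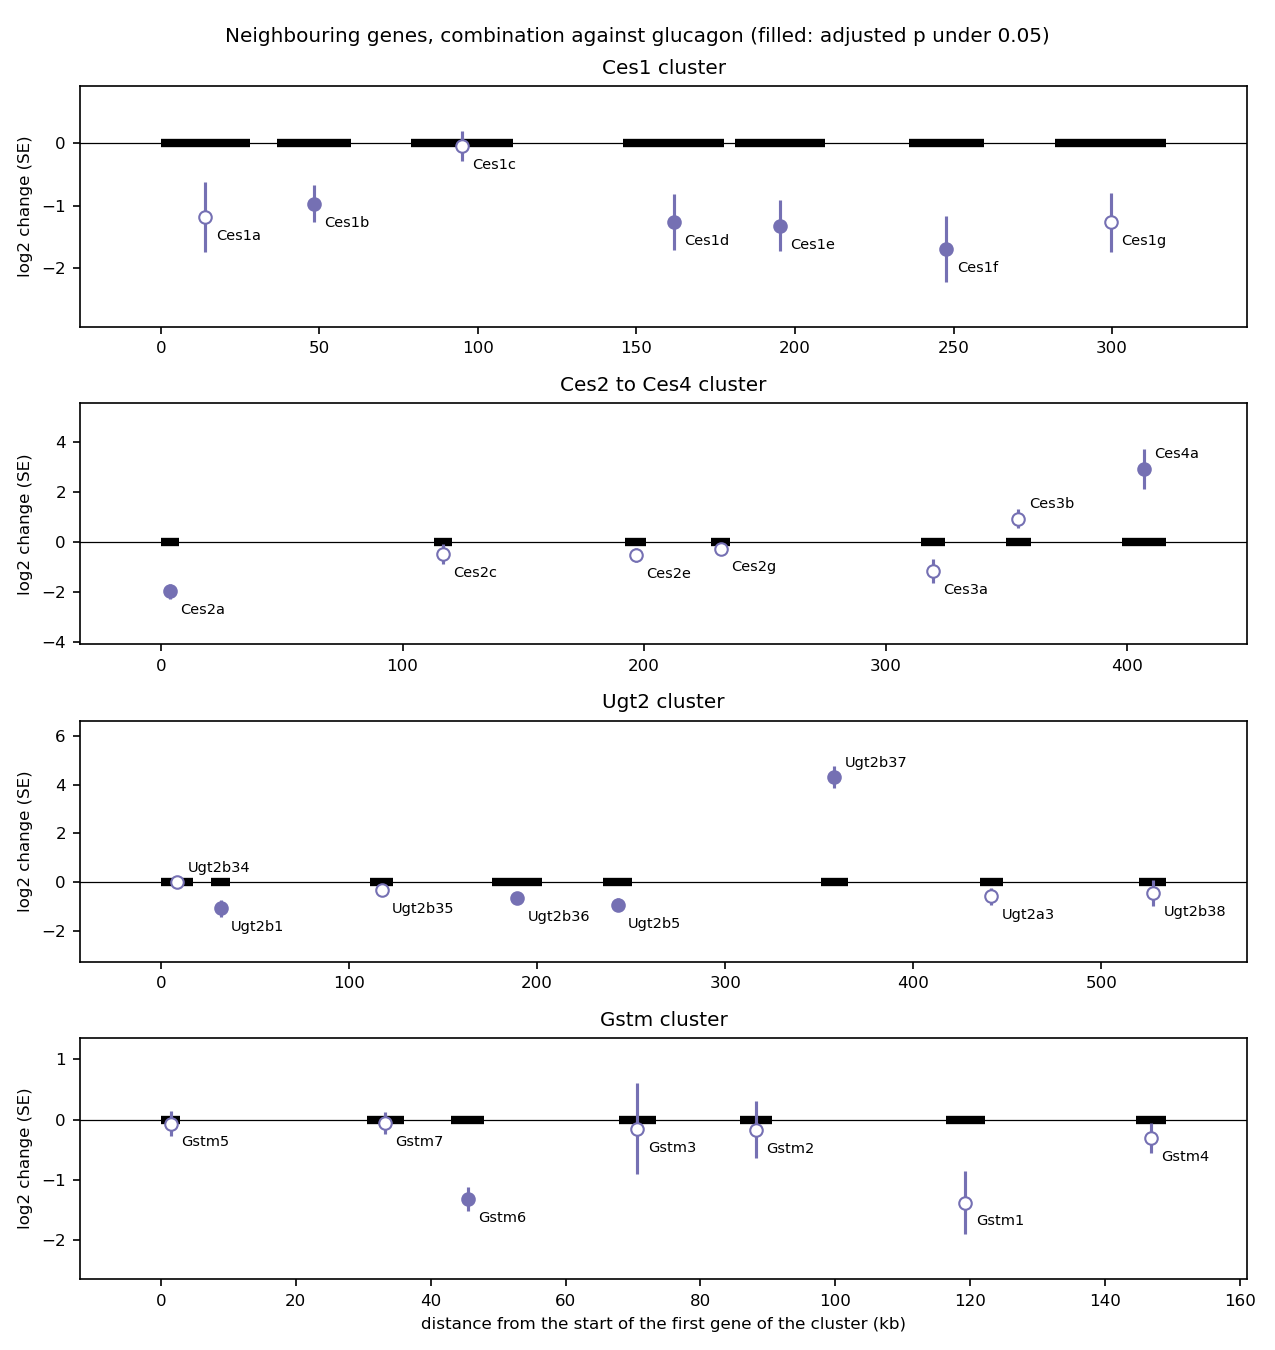
Log2 change in the combination against glucagon (points, with 1 SE) of neighbouring genes in 4 clusters, placed by distance in kb from the start of the first gene; bars on the 0 line show each gene's extent and filled points passed an adjusted p under 0.05. Ugt2b37 (4.31) and Ces4a (2.91) lie above 0 while the other filled points lie below it, and in the mu cluster Gstm6 (-1.32) is the filled point.

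Against glucagon the hybrid gave 32 calls, 7 higher and 25 lower, beside 25.2% of all genes (13.6% higher, 11.7% lower), with a median log2 change of -0.84 (all genes 0.00). The 7 higher were Ces4a, Gstk1, Gstt1, Sult4a1, Sult5a1, Ugt1a5 and Ugt2b37. Ugt2b37 rose by 3.76 ± 0.45 log2 units (edgeR adjusted p 5.9e-06), Ces4a rose by 3.54 ± 0.83 (adjusted p 0.0038) and Ugt1a5 rose by 2.45 ± 0.50 (adjusted p 0.0012). Of the 25 lower, Ces1f fell by 2.67 ± 0.54 (adjusted p 0.0011), Ces2a fell by 2.62 ± 0.32 (adjusted p 7.8e-06), Ces1g fell by 2.40 ± 0.49 (adjusted p 0.0011), Ces1d fell by 2.14 ± 0.45 (adjusted p 0.0016) and Gsta3 fell by 1.71 ± 0.30 (adjusted p 0.00029). TMM factors were 1.05 to 1.22 in the hybrid and 0.829 to 0.853 in glucagon, so these changes depend on the scaling too. By plain library size Ces1 sums were 1222 CPM in the hybrid and 2156 in glucagon (1091 and 2566 with TMM). Ugt2b sums were 876 and 1131 (771 and 1347 with TMM). The hybrid and combination comparisons share the glucagon mice. Of the 32, 29 stayed called in all 14 alternatives run.

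Whether the single hybrid molecule and the 2 hormones given together left the same levels was read from the hybrid against the combination, 2 groups spread over the same lanes. No member was called, beside 0.0310% of all genes (4 of 12907, all lower). At an unadjusted p under 0.05 there were 6 members and 891 of all genes, 6.90%, and DESeq2 called no member either. Of the 53 members 45 had a negative estimate, with a median of -0.21 (all genes 0.01). The values below are therefore estimates with intervals, which a miss of the threshold does not show to be 0.

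The 4 estimates furthest from 0 were those of Ces1g, Ces1f, Ces3b and Ces1d, and all 7 Ces1 estimates were negative. Ces1g differed by -1.13 log2 units (95% interval -2.12 to -0.14, edgeR adjusted p 0.68), Ces1f by -0.98 (-2.06 to 0.10, adjusted p 0.74), Ces3b by -0.93 (-1.75 to -0.12, adjusted p 0.68) and Ces1c by -0.61 (-1.11 to -0.12, adjusted p 0.65). Ces1c measured 1023, 679, 992 and 537 CPM in the hybrid and 1098, 1355, 1319 and 1169 in the combination, so no hybrid mouse reached the lowest combination mouse. Ces3b measured 119, 167, 176 and 349.9 and 435, 339, 393 and 384, where hybrid replicate 4 lies within the combination group. Sult1a1 differed by -0.60 (-1.06 to -0.15, adjusted p 0.65), with no hybrid mouse above 1165 CPM and no combination mouse under 1212.

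Members that rose against control in both groups had these differences. Ugt2b37 differed by -0.56 (-1.35 to 0.24), Sult5a1 by -0.19 (-0.80 to 0.42) and Gstt1 by -0.36 (-0.75 to 0.04). Ces4a differed by 0.62 (-0.93 to 2.18), and by -0.25 without hybrid replicate 4, its highest mouse (245 CPM). The intervals of Ces1f, Ces1g and Ces4a are wide, and differences that lie within them were not detectable with 4 mice a group.

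**Figure D5:**
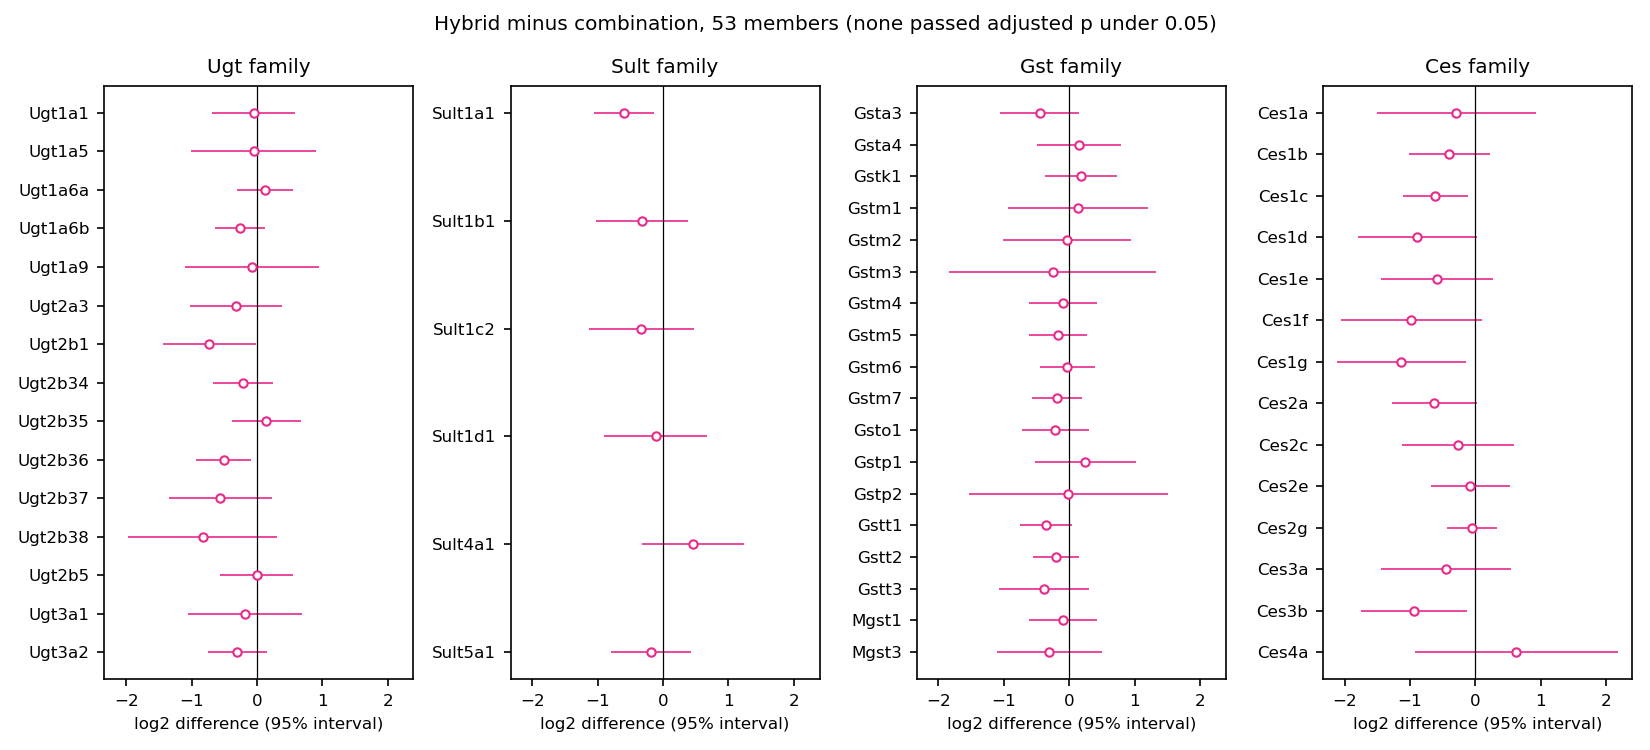
Log2 difference between hybrid and combination (points, with 95% intervals) of the 53 tested members, in 4 panels by family. Points left of 0 are lower in the hybrid: 45 of 53 are, 13 of 14 in the Ces panel, and none passed an adjusted p under 0.05.

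Whether glucagon and T3 acted additively on a log scale was read from the combination minus the sum of the separate effects, which draws on the T3 libraries and so on lane 5. No member was called, beside 3.73% of all genes. At an unadjusted p under 0.05 there were 6 of 53 members and 2173 of all genes, 16.8%, so the members departed no more often than all genes. Of the 53 estimates 39 were positive and 14 negative, with a median of 0.35 (all genes 0.08). Ces1a departed by -2.05 (95% interval -3.71 to -0.39, edgeR adjusted p 0.18), being at 2.52 to 8.05 CPM in glucagon, 1.35 to 6.82 in T3 and 0.947 to 3.06 in the combination. Gstm3 departed by 2.62 (0.37 to 4.87, adjusted p 0.21) and Ugt1a5 by 1.62 (0.21 to 3.02, adjusted p 0.22). With the replicate number as a block, which has no term for the T3 libraries and does not adjust for lane 5, Ces1a was called (-2.31, adjusted p 0.038), and without control replicate 1 Gstm3 was (3.01, adjusted p 0.0498).

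Genes that supply or serve these reactions were read from lists that overlap in part. Against control, 21.2% of all genes were called with glucagon, 18.0% with T3, 20.1% with the combination and 24.4% with the hybrid. These shares stand beside the list counts that follow. The T3 counts of the glucuronic acid and sulfate lists are near that share and say nothing particular to them. For glucuronic acid supply, 2 of 6 tested genes were lower and none higher in T3 against control: Ugdh, which oxidises UDP-glucose to UDP-glucuronic acid, fell by 2.30 ± 0.32 log2 units (edgeR adjusted p 9.4e-05), and Ugp2, which makes UDP-glucose, fell by 1.85 ± 0.33 (adjusted p 0.00077). In the hybrid 3 were lower and 2 higher. For sulfate supply, 2 of 10 were lower and 1 higher in T3 against control. Of the enzymes that make the sulfate donor, Papss1 fell by 1.03 ± 0.18 (adjusted p 0.00077) and Papss2 rose by 1.07 ± 0.25 (adjusted p 0.0078), in opposite directions. In the combination against glucagon Papss1 fell by 0.90 ± 0.18 and Papss2 rose by 1.22 ± 0.26 (adjusted p 0.0010 and 0.0016).

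Of 15 tested genes of glutathione synthesis and recycling, 8 were lower and 1 higher in T3 against control, beside 18.0% of all genes. In the combination and in the hybrid against control, 5 were lower and 1 higher, beside 20.1% and 24.4% of all genes. The median log2 change of the 15 was -0.40 in T3, -0.02 in the combination and -0.33 in the hybrid. Gclc, the catalytic subunit of the rate-limiting synthetic enzyme, fell by 1.97 ± 0.22 log2 units (edgeR adjusted p 5.7e-06), and glutathione reductase Gsr fell by 0.82 ± 0.15 (adjusted p 0.00088). With glucagon 2 were higher and 3 lower: Chac1, which breaks down glutathione, rose by 2.29 ± 0.31 (adjusted p 2.1e-05), and Cth, which makes cysteine, rose by 1.39 ± 0.24 (adjusted p 0.00031). Among 15 other conjugating enzymes, such as N-methyltransferases, N-acetyltransferases and glycine conjugation enzymes, 8 were lower and 2 higher in T3, 10 and 2 in the combination, and 13 and 2 in the hybrid. The methyltransferase Inmt fell by 5.26 ± 0.56 in the hybrid against control (edgeR adjusted p 2.0e-06). Nnmt, which methylates nicotinamide, rose there by 2.98 ± 0.32 (edgeR adjusted p 2.4e-06). Nnmt was also high with glucagon alone, at 355 ± 27.8 CPM beside 57.4 ± 25.8 in control. It held 125 ± 53.3 CPM in T3, 370 ± 75.0 in the combination and 454 ± 99.9 in the hybrid.

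Among 14 other liver esterases and lipases, 5 were lower and 3 higher in T3 against control, beside 18.0% of all genes. Aadac, an arylacetamide deacetylase that acts beside carboxylesterases, fell by 1.75 ± 0.39 log2 units (edgeR adjusted p 0.0051), while Pnpla2, the adipose triglyceride lipase, rose by 1.22 ± 0.25 (adjusted p 0.0024). Of 10 carriers that export conjugates, 3 were lower and none higher in T3, beside 18.0% of all genes. In the combination 2 were lower (all genes 20.1%) and in the hybrid 3 (all genes 24.4%), with none higher. These counts are near those shares and say nothing particular to the carriers. With T3 Abcc3, the basolateral exporter of glucuronides, fell by 2.72 ± 0.24 (edgeR adjusted p 5.3e-07). Abcg2, an exporter of sulfates, fell by 2.25 ± 0.33 (adjusted p 0.00013) and Abcc2 fell by 0.55 ± 0.16 (adjusted p 0.025). In the combination against glucagon Abcc3 fell by 2.74 ± 0.24 and Abcg2 fell by 1.74 ± 0.32 (adjusted p 1.5e-07 and 0.00057).

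Of 16 transcription factors known to act on these families, 7 were lower and none higher with glucagon, beside 21.2% of all genes called. With T3 1 was lower and 2 were higher, beside 18.0% of all genes. The T3 count is near that share and says nothing particular to these factors. Nfe2l2, the oxidative stress factor NRF2, fell by 0.78 ± 0.14 log2 units with glucagon and fell by 0.51 ± 0.14 with T3 (edgeR adjusted p 0.00070 and 0.020). Nr1h4, the bile acid receptor, fell by 1.77 ± 0.29 with glucagon (adjusted p 0.00023), and Stat5b, through which growth hormone sets male patterns of liver genes, rose by 1.16 ± 0.17 with T3 (adjusted p 0.00013). Among 15 NRF2 target genes outside the families, 7 were lower and none higher with T3; Gclm, the partner subunit of Gclc, fell by 0.82 ± 0.23 (adjusted p 0.018). Of 12 targets of the drug receptors CAR and PXR, 4 were lower and 1 higher with T3, and 2 lower and 2 higher with glucagon. With T3 Cyp3a11, the standard PXR target, fell by 2.46 ± 0.38 (edgeR adjusted p 0.00020). Por, the electron donor of all these cytochromes, rose by 1.49 ± 0.24 (edgeR adjusted p 0.00034). Levels of both with glucagon alone were close to those with T3. Cyp3a11 measured 537 ± 187 CPM in control, 121 ± 18.9 in glucagon and 97.9 ± 17.1 in T3. Por measured 318 ± 118, 856 ± 181 and 892 ± 202 in the same groups. Cyp2b10, the standard CAR target, rose by 4.52 ± 0.94 with glucagon (adjusted p 0.0020). Of 5 targets of the dioxin receptor AHR, Nqo1 fell by 1.21 ± 0.41 with T3 (edgeR adjusted p 0.046) and no other was called there. With 5 genes, 1 call is near the share of all genes.

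In all, 7 of the 53 tested members passed in no comparison: Ces1a, Ces3b, Gstt2, Sult1c2, Sult1d1, Ugt1a1 and Ugt2b34. Ugt2b34, at the edge of the Ugt2 row, kept 437 ± 150.2 CPM in control, 309.5 ± 58.7 in T3, 379 ± 78.0 in the combination and 327 ± 61.5 in the hybrid. Gsto1, whose product reduces dehydroascorbate, was called in the hybrid against glucagon alone, at 159 to 247 CPM beside 253 to 412. Gstm5 was called lower in the hybrid against control alone. Other members could be affected by shared reads: 7 of the 56 share over 50% of their 50-base stretches with another transcript, 36 share under 10%, and Ces3a and Ces3b (30.2% and 25.6%), Ces2c (42.2%) and Gstm3 (28.8%) lie between.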

How the data were processed

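Liver RNA of 20 mice was sequenced, 1 library per mouse and 4 per group; per the labels' protocols a Qiagen kit served for RNA and a Lexogen kit for libraries. The deposited files hold raw read counts per gene symbol, which the submitters' processing notes credit to HTSeq and mm10; how reads were aligned, by which annotation and HTSeq version they were counted, and whether strand was used was not given in the sources used here. Totals ran from 6091917 to 23195658 counts, and floors of 3 counts cover counting error only.

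Members were picked by symbol, and members and lists were chosen with earlier results of these data known. The counts were fitted with edgeR 4.0.16 (R 4.3.3) with TMM factors, filterByExpr at a minimum count of 10 and 1 mean per group over all 20 libraries (12907 of 13319 genes, residual df 15). The quasi-likelihood test gave p-values, adjusted by Benjamini-Hochberg over all 12907 genes; an SE is the log2 change divided by the square root of F. The p-values measure the spread between these mice, taken as 1 spread per gene shared over all 5 groups. Comparisons with control thus draw on the spread of the other groups too, which can understate that of the control mice. The biological coefficient of variation was 27.8%. The script was tested on simulated data. No 2 libraries of a group agreed within sampling noise (chi-square per degree of freedom at least 17.8).

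Log2 changes are given, per family and comparison, for up to 4 called members with the highest and up to 4 with the lowest change among those at 5 CPM or more in 1 group, and for up to 3 called genes of smallest p per pathway list. The 3 members of each family with most counts are given as levels. Estimates for uncalled members in the hybrid against the combination and in the additivity comparison were chosen after their values were seen.

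Alternatives were RLE factors, no filter, DESeq2 1.42.0, the compared groups alone, the replicate number as a block (lanes 1 to 4; the T3 libraries, all of lane 5, had no block term, so T3 was matched to no lane), each mouse left out in turn, both libraries with most muscle RNA left out, and sums by plain library size. Same-numbered libraries correlated between -0.318 and 0.462 in their deviations from group means, over 0.1 in 10 of 24 pairs; outside T3, the labels give the lane as what a number shares. Positions and 50-base sharing came from GENCODE M21 (GRCm38), which held all 56 symbols, and promoters from RefSeq (GRCm38.p6), which matched 47.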

Additional observations from a re-analysis of the deposited data

Results flagged for a closer look

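In 8 of 235 pairs of a member and a group, 1 mouse stood apart from the other 3 by more than Dixon's criterion for 4 samples (0.829). Chance alone gives about 1 in 20 such pairs. Ces4a was 33.8 CPM in T3 replicate 1 and 107 to 133 in the other T3 mice. Sult1b1 was 9.93 CPM in T3 replicate 1 beside 6.16 to 6.55, and Gstt2 was 42.2 in T3 replicate 3 beside 66.6 to 71.4. Ugt2a3 was 399 CPM in control replicate 1 beside 86.3 to 107, and 89.6 in hybrid replicate 2 beside 59.8 to 60.2. Ugt1a1, the bilirubin enzyme, was 105.7 CPM in control replicate 2 beside 271 to 287. Ces2e was 75.7 CPM in combination replicate 1 beside 94.1 to 96.1, and Sult1c2 was 3.64 in hybrid replicate 4 beside 5.58 to 5.87.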

How the results depend on the processing

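With the libraries of the compared groups alone, the count of called members went from 8 to 1 in glucagon against control and from 35 to 20 in T3 against control; the cause was not tested. Leaving out 1 mouse at a time gave 4 to 12 calls in glucagon against control, 30 to 36 in T3, 30 to 36 in the combination and 35 to 41 in the hybrid against control, 22 to 25 and 30 to 32 in the combination and hybrid against glucagon, 0 to 0 in the hybrid against the combination, and 0 to 1 in additivity. The additivity count was 1 with the replicate number as a block, and 1 without control replicate 1. The block, with no term for the T3 libraries, left lane 5 unadjusted; it gave 6, 35, 32 and 40 calls for glucagon, T3, combination and hybrid against control and 31 and 34 for combination and hybrid against glucagon. It ended the calls on Gstm2 and Sult4a1 with glucagon and on Ces3a and Ugt2a3 with the combination against control. By plain library size, sums over subfamilies moved by more than 1 SD for Ces2 (182 CPM), Gsta (984), Gstk (69.2), Gstt (999.7), Sult1a (488), Sult1d (26.2), Ugt2a (105.5), Ugt2b (1131) and Ugt3a (182) in glucagon and for Sult1b (6.09) and Ugt2b (876) in the hybrid. The estimate for Ces4a in the hybrid against the combination ran from -0.25 (without hybrid replicate 4, edgeR adjusted p 0.960) to 0.99 (without hybrid replicate 1). Members called under all 14 alternatives were 1 of 8, 20 of 35, 24 of 34 and 28 of 40 against control, and 18 of 29 and 29 of 32 against glucagon.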
